A study of Mus musculus with 15 samples.

Results

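The Lif signalling axis was taken as 5 genes, selected by symbol in each table that lists them: the ligand Lif, the receptor chains Lifr and Il6st, the transcription factor Stat3 and the inhibitor Socs3. They are 5 of the 28269 genes listed in any table of the series. Libraries of RNA sequencing reads had been made from mouse uterine epithelium on day 4, with 3 libraries in each of 5 groups. The groups were luminal epithelium (LE, the lining of the uterine cavity) and glandular epithelium (GE, the uterine glands) of wild-type animals, LE and GE of animals titled E-OEX, and LE of animals titled U-OEx. The labels give both E-OEX and U-OEx the genotype of Notch1 overexpression, Notch1 being a cell-surface receptor, and the series' title speaks of overactive Notch1 signalling. Neither the meaning of these titles nor the promoter or cell type that drives the overexpression is given in the labels. They also do not say whether the 3 libraries of a group came from separate animals, so p-values measure the spread between libraries, which may be technical.

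Leukaemia inhibitory factor, the product of Lif, is a secreted cytokine of the interleukin-6 family. It binds the receptor chain encoded by Lifr, which pairs with gp130, the shared receptor chain of the family encoded by Il6st. Janus kinases bound to these chains then phosphorylate STAT3, which moves to the nucleus and raises its target genes, among them Socs3, whose protein binds gp130 and dampens the signal. In the mouse uterus, Lif made by the glands around the time of implantation acts on the luminal epithelium and is needed for embryos to implant.

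The tables differ in the genes they list, and this limits which members could be compared. Lif and Il6st were in every table, Lifr was in the wild-type and U-OEx tables, and Stat3 and Socs3 were in the U-OEx tables; the other combinations were not analysed here. Wild-type libraries have 6414 listed genes and E-OEX libraries have 4903, and both lists hold genes whose GE and LE means differ about 2-fold or more. That contrast is thus part of how the genes were listed, and the GE against LE values below are a description. The interaction below rests on that contrast in both genotypes and is a description as well. The tests below cover only genes listed in every table compared, so their shares of all genes describe this selected set. The U-OEx tables list 27946 genes. Over their listed genes, the wild-type and E-OEX libraries held 1980800 to 4797424 reads each, and those of U-OEx held 13541644 to 14981505. Values are the deposited scaled read counts unless said to be rescaled. Rescaled means that the reads of the genes shared by the libraries compared were scaled together. Genotypes may have been scaled separately before deposit, so deposited values ordered across genotypes are a description. Foxa2, a transcription factor of the glands, marked the GE libraries, with 1941 to 2593 scaled counts in wild-type and E-OEX GE against 4.10 to 14.5 in wild-type LE. Libraries of GE also held stromal RNA, with a rescaled sum of 6 stromal markers between 41244 and 114424 over wild-type and E-OEX GE, against 366 to 7291 over wild-type and E-OEX LE. For these sums the GE and the LE libraries were rescaled separately, so the ranges are not on a common scale. Replicate 1 of E-OEX LE stood apart from its group, with 426 scaled counts of Foxa2 against 41.8 and 52.9 in replicates 2 and 3.

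Promoter windows are shown for the ligand and the receptor chain that fell together in E-OEX GE, and for the inhibitor that is itself a STAT3 target. Each is the 250 bases before the gene's RefSeq start site (GRCm38.p6), written 5′ to 3′ along the gene's strand, with motif matches in capitals. Lif lies at chr11:4257318-4257567 on the plus strand, Il6st at chr13:112463820-112464069 on the plus strand and Socs3 at chr11:117969367-117969616 on the minus strand.
Lif: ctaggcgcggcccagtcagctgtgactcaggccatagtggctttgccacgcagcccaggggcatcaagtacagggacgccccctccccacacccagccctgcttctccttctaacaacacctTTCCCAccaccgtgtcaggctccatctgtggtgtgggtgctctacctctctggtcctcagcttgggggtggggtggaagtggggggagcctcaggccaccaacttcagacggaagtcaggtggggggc
Il6st: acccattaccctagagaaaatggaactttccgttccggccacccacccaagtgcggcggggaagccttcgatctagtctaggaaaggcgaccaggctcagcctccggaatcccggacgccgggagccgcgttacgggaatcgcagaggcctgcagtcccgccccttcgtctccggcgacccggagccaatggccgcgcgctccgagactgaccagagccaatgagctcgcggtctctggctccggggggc
Socs3: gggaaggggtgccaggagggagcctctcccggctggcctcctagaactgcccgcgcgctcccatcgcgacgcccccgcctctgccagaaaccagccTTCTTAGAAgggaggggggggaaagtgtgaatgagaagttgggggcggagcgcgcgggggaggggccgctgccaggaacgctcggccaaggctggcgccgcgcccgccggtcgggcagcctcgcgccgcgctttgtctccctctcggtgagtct
The motifs searched on both strands were TGGGAA, the core recognised by RBPJ, the DNA-binding partner of the Notch receptors, and TTCNNNGAA, the spaced palindrome bound by STAT proteins. Capitals in Lif mark 1 match to the RBPJ core, read on the opposite strand, whose first base lies 128 bases before the start site. Capitals in Socs3 mark 1 match to the STAT palindrome, starting 154 bases before the RefSeq start site. In GENCODE M21 Socs3 spans chr11:117966079-117970047, so its window lies inside the gene by that annotation, as do both Lifr windows. The Il6st window, the 2 Lifr windows and the Stat3 window held neither motif. Of 32851 windows of the same length, 21.6% held the RBPJ core and 7.02% the STAT palindrome, so the Lif match is of a common kind, and a match is a description of letters and not of binding.

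Lif (ENSMUSG00000034394; GENCODE M21 on GRCm38, chr11:4257557-4272514, plus strand) was a gland transcript in wild-type animals. Its scaled counts were 6391, 4698 and 8110 in wild-type GE and 20.7, 53.3 and 42.5 in wild-type LE. The LE libraries of E-OEX animals held 519, 147 and 36.7, those of GE held 519, 1250 and 745, and the LE libraries of U-OEx animals held 550, 403 and 818. Every wild-type GE library lay above every library of the other groups, the highest of which was E-OEX GE replicate 2. Below that, the order of group means was E-OEX GE (838 ± 374, SD, n = 3), U-OEx LE (591 ± 210), E-OEX LE (234 ± 252) and wild-type LE (38.8 ± 16.6), and each neighbouring pair in this order overlapped. E-OEX LE was the least uniform group, with replicate 3 inside the wild-type LE range and replicate 1 nearly level with the lowest E-OEX GE library.

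Il6st (ENSMUSG00000021756; chr13:112464070-112510086, plus strand), whose product is the signal-transducing chain shared by the whole cytokine family, was likewise highest in wild-type GE. It held 49888, 52224 and 64131 scaled counts in wild-type GE and 2428, 3981 and 3208 in wild-type LE. In E-OEX animals it held 7320, 9215 and 9473 in GE and 3161, 2769 and 4592 in LE, and in U-OEx LE it held 3951, 2851 and 2668. Wild-type GE stood alone at the top, E-OEX GE lay between it and the 3 LE groups, and the LE groups overlapped one another.

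Lifr (ENSMUSG00000054263; chr15:7090614-7197489, plus strand), which encodes the receptor chain that binds Lif, had the opposite distribution. Wild-type LE held 1618, 3869 and 2717 scaled counts, wild-type GE held 551, 386 and 606, and U-OEx LE held 977, 1397 and 890. The 3 groups did not overlap, with wild-type LE highest and wild-type GE lowest.

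**Figure D1:**
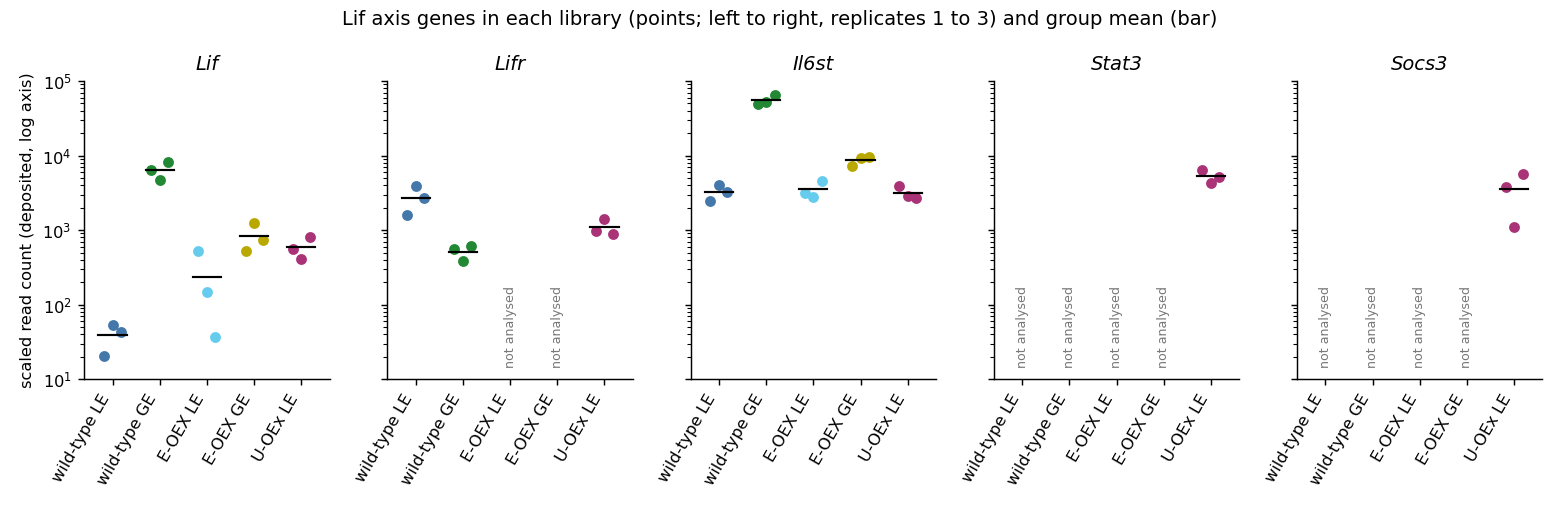
Scaled read count of each of the 5 genes (log axis) in every library, with points for replicates 1 to 3 from left to right and a bar at the group mean; groups whose tables do not list the gene are marked as not analysed. Wild-type GE stands above all other groups for Lif and Il6st, with means of 6400 and 55414, and below the other 2 groups for Lifr, with a mean of 514.

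Divided by exon length, which allows levels of different genes to be compared, the 3 genes were arranged differently in the 2 wild-type epithelia. Wild-type GE held 4993 scaled counts per kb of exon for Il6st, 1471 for Lif and 47.7 for Lifr. In wild-type LE the level per kb was 289 for Il6st, 254 for Lifr and 8.92 for Lif. The 2 receptor chains were thus near each other in wild-type LE, while in wild-type GE Il6st was far above Lifr. Within single libraries, the log2 ratio of the counts of Lifr to Il6st was -0.29 ± 0.28 in wild-type LE and -6.77 ± 0.29 in wild-type GE. The log2 ratio of Lif to Lifr was -6.11 ± 0.13 in wild-type LE and 3.63 ± 0.10 in wild-type GE, and it fell in between in U-OEx LE at -0.91 ± 0.84. A ratio within a library does not depend on how libraries were scaled. An exact permutation test of 3 against 3 libraries cannot give a two-sided p below 0.1, and after adjustment over 34 such ratio tests this smallest value becomes 0.136.

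**Figure D2:**
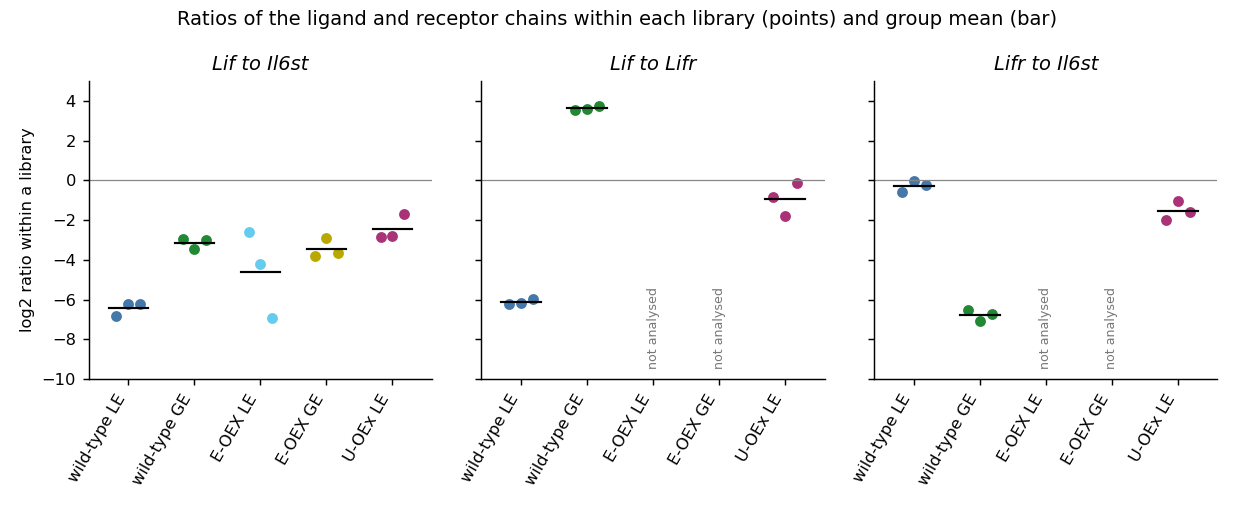
Log2 ratio of the scaled counts of 2 genes within each library (points) and the group mean (bar) for Lif to Il6st, Lif to Lifr and Lifr to Il6st. The Lif to Il6st ratio of E-OEX GE overlaps that of wild-type GE, with means of -3.45 and -3.14, while U-OEx LE lies above wild-type LE for both ratios of Lif.

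Both listed members fell in GE of E-OEX animals. Lif fell from 7754 ± 2258 to 729 ± 332 rescaled counts (SD, n = 3 each). On the log2 scale this was -3.46 (SE 0.34, 95% interval -4.23 to -2.68, limma adjusted p = 0.000144). Il6st fell from 66835 ± 10044 to 7531 ± 601, or -3.14 on the log2 scale (SE 0.23, 95% interval -3.65 to -2.64, limma adjusted p = 3.14e-05). Neither gene's libraries overlapped between the groups, as was so for 40.5% of all genes. Over the 2851 genes tested, 23.5% were called at an adjusted p under 0.05, with 9.72% of the 2851 higher and 13.8% lower. Of the genes called, 41.3% were higher in E-OEX GE; on the deposited scale that share was 71.6%, the median of all genes moved from 0.05 to 0.50, and Lif and Il6st changed by -2.99 and -2.68. The log2 ratio of Lif to Il6st was -3.45 ± 0.50 in E-OEX GE and -3.14 ± 0.29 in wild-type GE, a difference of -0.31 with overlapping libraries (exact permutation p = 0.4, adjusted 0.439).

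Markers of cell types differed between these GE groups as well. Of the 6 gland markers 4 could be compared, and their rescaled sum was 3311 to 3697 in E-OEX GE against 18794 to 25107 in wild-type GE. Spink1, a protease inhibitor gene, fell by 7.55 on the log2 scale, Ttr, which encodes transthyretin, fell by 6.34 and Cxcl15, a chemokine gene, fell by 1.88, while Foxa2 did not pass the test at -0.53. The sum of 4 of 5 smooth muscle markers was 10471 to 15549 against 3226 to 5707, and Cnn1, Myh11 and Acta2, genes of the contractile apparatus, rose by 1.89, 1.66 and 1.65. The sums of 6 of 7 stromal markers (65321 to 79540 against 41244 to 114424), of Cdh1 and Krt19 (10986 to 16896 against 11623 to 12243) and of 6 endothelial and pericyte markers (3825 to 10000 against 5069 to 7706) overlapped. The sum of Cdh1 and Krt19 hid opposite changes on the deposited scale. Krt19 was higher with E-OEX, at 8487 to 10556 scaled counts against 1295 to 1997. The mean of Cdh1 was lower, at 6678 against 8175, with overlapping libraries (5522 to 7637 against 7356 to 8722). In bulk RNA, fewer cells of a type and less RNA per cell cannot be told apart. Set against Foxa2 within each library, the log2 ratio in E-OEX GE minus that in wild-type GE was -2.92 for Lif and -2.61 for Il6st; against Cdh1, the gene of the epithelial adhesion protein E-cadherin, the differences were -2.69 and -2.38. Spink1 and Ttr fell by more than Lif and Il6st, and no ratio to them, to Cxcl15 or to Krt19 was taken. The 4 ratios to Foxa2 and Cdh1 were chosen after seeing the data. In each of them the 2 groups did not overlap (exact permutation p = 0.1, the smallest possible). The same ratios for U-OEx LE minus wild-type LE were -1.75 for Lif to Foxa2, with overlapping libraries (exact permutation p = 0.2), 5.41 for Lif to Cdh1, -5.69 for Il6st to Foxa2 and 1.46 for Il6st to Cdh1, the last 3 without overlap (exact permutation p = 0.1).

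The gap between GE and LE was smaller in E-OEX animals than in wild-type animals for both genes. Wild-type GE exceeded wild-type LE by 7.39 for Lif (SE 0.38) and 4.13 for Il6st (SE 0.21) on the log2 scale, and the same difference was -2.35 for Lifr (SE 0.34). Of the genes in this selected list 97% were called and 95.9% had groups that did not overlap. In E-OEX animals the same difference was 2.46 for Lif (SE 0.87, limma adjusted p = 0.0264) and 1.33 for Il6st (SE 0.31, limma adjusted p = 0.00519), where 91.6% of listed genes were called and the median gene was 1.75 higher in GE. The value for Il6st thus lay under the median. Both E-OEX calls were lost when reads were rescaled by TMM, at 1.73 for Lif (limma adjusted p = 0.0725) and 0.59 for Il6st (0.126), with the median gene then at 1.07 and the share of higher calls at 56.8% instead of 67.2%. The change of the gap, tested as an interaction, was -4.93 for Lif (SE 1.04, limma adjusted p = 0.0097) and -2.80 for Il6st (SE 0.39, limma adjusted p = 0.00113). Of 2933 genes tested, 10.7% were called in the interaction and 4.91% were called lower; 54.3% of the calls were higher, against 42.9% after quantile normalization. The interaction includes the same wild-type and E-OEX libraries as the comparison of the GE groups. Its genes were listed in both tables, and so selected on this gap in each genotype, which makes it a description.

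In LE of E-OEX animals neither member passed the test against wild-type LE. Lif differed by 1.77 (SE 0.86, 95% interval -0.15 to 3.69, limma adjusted p = 0.227), so the interval spans 0. Without E-OEX LE replicate 1 the difference was 0.91 (adjusted p = 0.537), and without replicate 3 it was 2.88 (adjusted p = 0.0289). Replicate 1, with the most Lif, also had the highest rescaled sum of 4 gland markers, at 417. The other E-OEX LE libraries held 53.3 to 70.4 and those of wild-type LE 26.6 to 29.3. Foxa2 and Cxcl15 carried the sum of replicate 1, with 426 and 63.0 scaled counts. Spink1 was at 0 in every E-OEX LE library, and Ttr was highest in replicate 3, at 3.24. The part of these markers in the Lif value was not tested. The sum of 4 of 5 luminal markers was 11148 to 16666 in E-OEX LE against 29996 to 65245 in wild-type LE. Sums of smooth muscle (12.2 to 55.0 against 88.3 to 219) and of endothelial and pericyte markers (20.4 to 31.8 against 50.2 to 248) and the level of Cd68 (180 to 227 against 239.5 to 264) also did not overlap. Il6st differed by -0.05 (SE 0.40, 95% interval -0.94 to 0.85, limma adjusted p = 0.949). In this comparison 10.7% of 2600 genes were called, 5.12% of the 2600 in the higher direction, and 48.0% of the calls were higher, against 58.6% on the deposited scale.

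U-OEx LE differed from wild-type LE in the ligand and in its own receptor chain. Lif rose by 3.91 on the log2 scale (SE 0.41, 95% interval 2.96 to 4.87, limma adjusted p = 0.000129). Lifr fell by 1.29 (SE 0.31, 95% interval -2.01 to -0.57, limma adjusted p = 0.00851), and for neither of these genes did the groups overlap, as was so for 63.8% of all genes. Il6st differed by -0.04 (SE 0.24, 95% interval -0.60 to 0.53, limma adjusted p = 0.905). Of the 3 members tested 2 were called, where 56.9% of 5949 genes were called, 29.1% higher and 27.8% lower. The Lifr call was lost without U-OEx LE replicate 1 (-1.15, adjusted p = 0.0599) or replicate 3 (-1.09, adjusted p = 0.0646) and after quantile normalization (-0.82, adjusted p = 0.075), which also placed Il6st 0.70 higher in U-OEx LE (adjusted p = 0.0331).

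Cell type markers moved in this comparison too. The rescaled sum of 5 of 6 gland markers was 515 to 851 in U-OEx LE and 24.1 to 38.6 in wild-type LE, while that of 4 of 5 luminal markers was 5440 to 7866 against 30475 to 64673. The sum of the epithelial genes Cdh1, Krt19 and Epcam was 28116 to 41116 against 46021 to 61522. The gland markers Spink1, Ttr and Prss29 were at 0 in every U-OEx LE library. Foxa2 and Cxcl15 made up the whole gland sum there, with means of 530 and 122 scaled counts. The leukocyte markers that could be compared, 3 of 6, summed to 1398 to 2368 against 560 to 1362, and stromal, smooth muscle and endothelial sums overlapped. The part of these cell types in the Lif and Lifr values was not tested. U-OEx LE and E-OEX LE, which share no library, differed by 1.86 for Lif (SE 0.79, 95% interval 0.08 to 3.64, limma adjusted p = 0.135) and -0.27 for Il6st (SE 0.33, adjusted p = 0.616), with 15% of 4275 genes called (6.97% higher and 8.05% lower); without E-OEX LE replicate 1 the Lif difference was 2.71 (adjusted p = 0.0201). The sum of 4 gland markers, carried by Foxa2 and Cxcl15, was 492 to 877 in U-OEx LE and 64.8 to 485 in E-OEX LE. That of 4 luminal markers was 5201 to 8190 and 12969 to 20059. Also apart were Cdh1 plus Krt19 (21714 to 35166 and 39319 to 58587), smooth muscle (89.8 to 171 and 17.1 to 65.8), endothelium and pericytes (102 to 163 and 24.4 to 37.0) and Cd68 (302 to 445 and 219 to 264), while stromal sums overlapped.

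**Figure D3:**
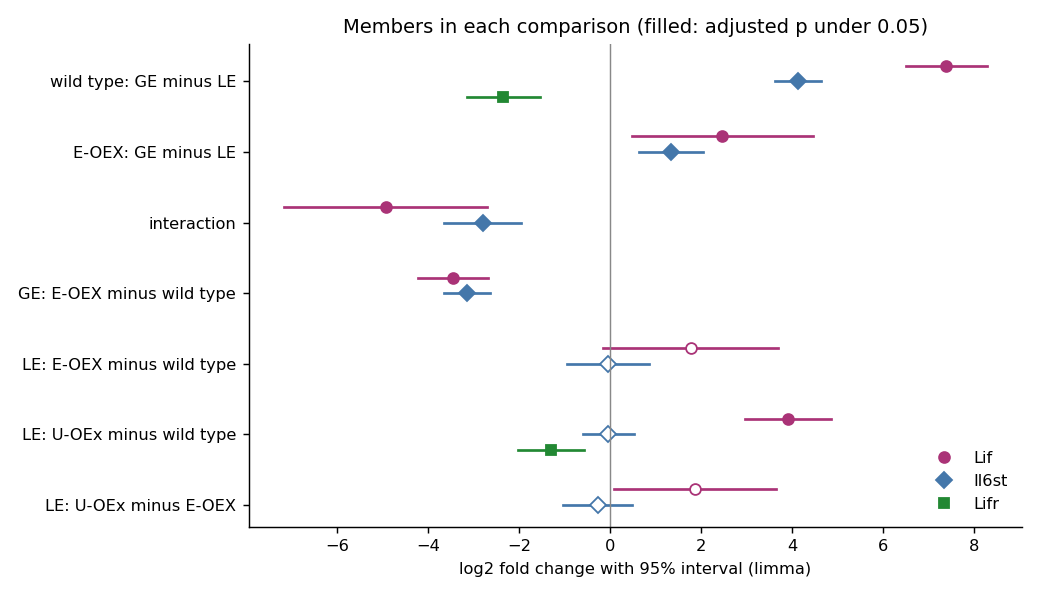
Log2 fold change of Lif, Il6st and Lifr with its 95% interval in each comparison (limma), with filled symbols where the adjusted p was under 0.05. Lif and Il6st both sit left of 0 for GE of E-OEX animals, at -3.46 and -3.14, whereas in U-OEx LE Lif is 3.91 higher and Il6st lies at -0.04.

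Stat3 (ENSMUSG00000004040; chr11:100885098-100939540, minus strand) and Socs3 (ENSMUSG00000053113; chr11:117966079-117970047, minus strand), the signal carrier and its feedback inhibitor, were measured in U-OEx LE without a matching wild-type value. Stat3 held 6398, 4232 and 5085 scaled counts and Socs3 held 3831, 1110 and 5618. Both genes were lowest in replicate 2. Stat3 stayed between 4232 and 6398 among the 3 libraries, while Socs3 was several-fold lower in replicate 2 than in the others. Scaled for exon length and to the same total per library, Socs3 averaged 289 ± 183, Stat3 132 ± 21.1, Il6st 68.3 ± 12.7, Lif 32.6 ± 10.9 and Lifr 24.6 ± 7.45. In that order Socs3 overlapped Stat3 and Lif overlapped Lifr, and the other neighbours were separate. Among the genes matched to a length, these means stood at the percentiles 98.4 for Socs3, 95.5 for Stat3, 90.0 for Il6st, 79.2 for Lif and 74.7 for Lifr. All 4 Janus kinases, the enzymes that phosphorylate STAT3, were present in U-OEx LE, at 133 ± 7.33 for Jak2, 112 ± 18.6 for Jak3, 72.1 ± 3.05 for Jak1 and 40.4 ± 4.49 for Tyk2 on the same scale. Osmr, the receptor chain of oncostatin M, which also pairs with gp130, averaged 36.4 ± 10.7.

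In U-OEx LE most genes known as STAT3 targets were lowest in the same library as Socs3. Of the 22 listed targets with a mean of at least 10 scaled counts, 20 were lowest in replicate 2 (90.9%), where 32.4% of all 16540 genes with such a mean were lowest in that library. The median target differed 2.0-fold between its highest and lowest library, beside 1.37-fold over all genes and 5.06-fold for Socs3. At the wide end, Saa3, an acute-phase gene, held 4535, 50.7 and 3508 scaled counts, and Lrg1, which encodes another acute-phase glycoprotein, held 3776, 906 and 4673. Acod1, an enzyme gene of activated macrophages and of the uterine lining that is not on the target list, held 5251, 637 and 3629. Lif and Stat3 were also lowest in replicate 2, with spreads of 2.03-fold and 1.51-fold, and Lifr was highest there. Among list genes with such a mean, 4 of 5 receptor chains, 4 of 6 other STATs and 3 of 7 ligands were lowest there. For Janus kinases it was 2 of 4, for inhibitors 5 of 15 and for implantation genes 4 of 11. All 6 leukocyte markers were lowest in the same library, with 1570, 441 and 2705 scaled counts of Ptprc, the pan-leukocyte CD45 gene, and 790, 360 and 1165 of Csf1r, the receptor gene of macrophages. Of 6 stromal markers with such a mean 5 were lowest there, and of the 5 epithelial markers none was; the part of these cell types in the pattern was not tested. This pattern was noticed in these 3 libraries and carries no test.

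**Figure D4:**
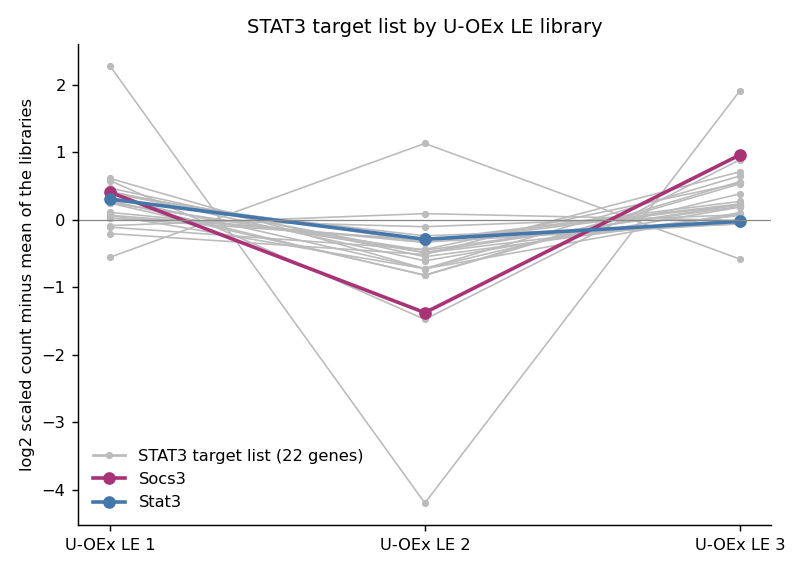
Log2 scaled count of Socs3, Stat3 and the 22 genes of the STAT3 target list (grey) in each U-OEx LE library, minus the mean of the 3 libraries. Of the 22 genes, 20 are lowest in replicate 2, as are Socs3 and Stat3.

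The other genes of the pathway were described from lists of 81 genes. Between E-OEX GE and wild-type GE 14 of them could be tested, and 5 rose and 2 fell, which is 7 of 14 where 23.5% of all genes were called. Their median log2 fold change was 0.56, beside 0.05 over all genes. Among STAT3 targets, 3 of 4 rose, where 9.72% of all genes tested were called higher. They were Myc, a growth regulator, by 1.33 (SE 0.27, limma adjusted p = 0.00621), Hp, the plasma protein haptoglobin, by 1.39 (SE 0.36, adjusted p = 0.0201), and Cebpb, a transcription factor, by 1.19 (SE 0.31, adjusted p = 0.0212). Scaled counts of Myc were 445, 766 and 511 in wild-type GE and 2254, 1600 and 2022 in E-OEX GE, so these genes were higher where Lif and Il6st were lower. Among genes named in the field beside Lif in implantation, Egr1, an immediate early gene, rose by 1.69 and Bmp2, a growth factor of decidual cells, by 1.62, while the signalling ligand gene Wnt4 fell by 2.66 and Acod1 fell by 2.04. The ligand gene Ctf2, the receptor chains Il27ra and Il11ra1, and Stat2 did not pass. Without wild-type GE replicate 1, 4 of these genes passed, and in 1 fit over all 5 groups, which tests only genes listed in every table, Wnt4 alone did; Lif and Il6st passed in both.

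Between U-OEx LE and wild-type LE 32 genes of the lists could be tested, and 14 rose and 8 fell, beside 56.9% called among all genes. The median over the 32 was 0.47, against 0.09 over all genes. Of 8 STAT3 targets 6 rose, where 29.1% of all genes tested were called higher. Hp was at or under 3 reads in every wild-type LE library and at least 2124-fold higher in U-OEx LE, taking 3 reads per library as the floor. Lrg1 rose by 7.85, Birc5, a cell division gene, by 5.47, Icam1, an adhesion molecule gene, by 4.97, Myc by 2.19 and Cebpb by 1.27. Hif1a, which encodes an oxygen-regulated transcription factor subunit, fell by 2.98 and Bcl2l1, a survival gene, fell by 1.04. Of the receptor chains 2 rose, Lepr (the leptin receptor) by 4.07 and Il27ra by 3.70, as did Jak3 by 1.14 and the inhibitor Socs1 by 1.50. Among the inhibitors Socs7 fell by 2.29 and Pias3 fell by 1.21, and among the ligands the cardiotrophin genes Ctf1 and Ctf2 changed by -1.97 and -1.49. Foxa2, known to be needed for Lif in the glands, rose by 5.66, from 14.5, 4.10 and 12.3 scaled counts in wild-type LE to 677, 471 and 441. Msx2 rose by 3.98, Wnt4 by 3.75 and Ptgs2, a prostaglandin synthase gene, by 1.70, whereas Acod1 fell by 2.25 and Pgr, the progesterone receptor gene, fell by 1.96. In 1 fit over all 5 groups, which tests only genes listed in every table, 6 of the lists' genes passed.

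**Figure D5:**
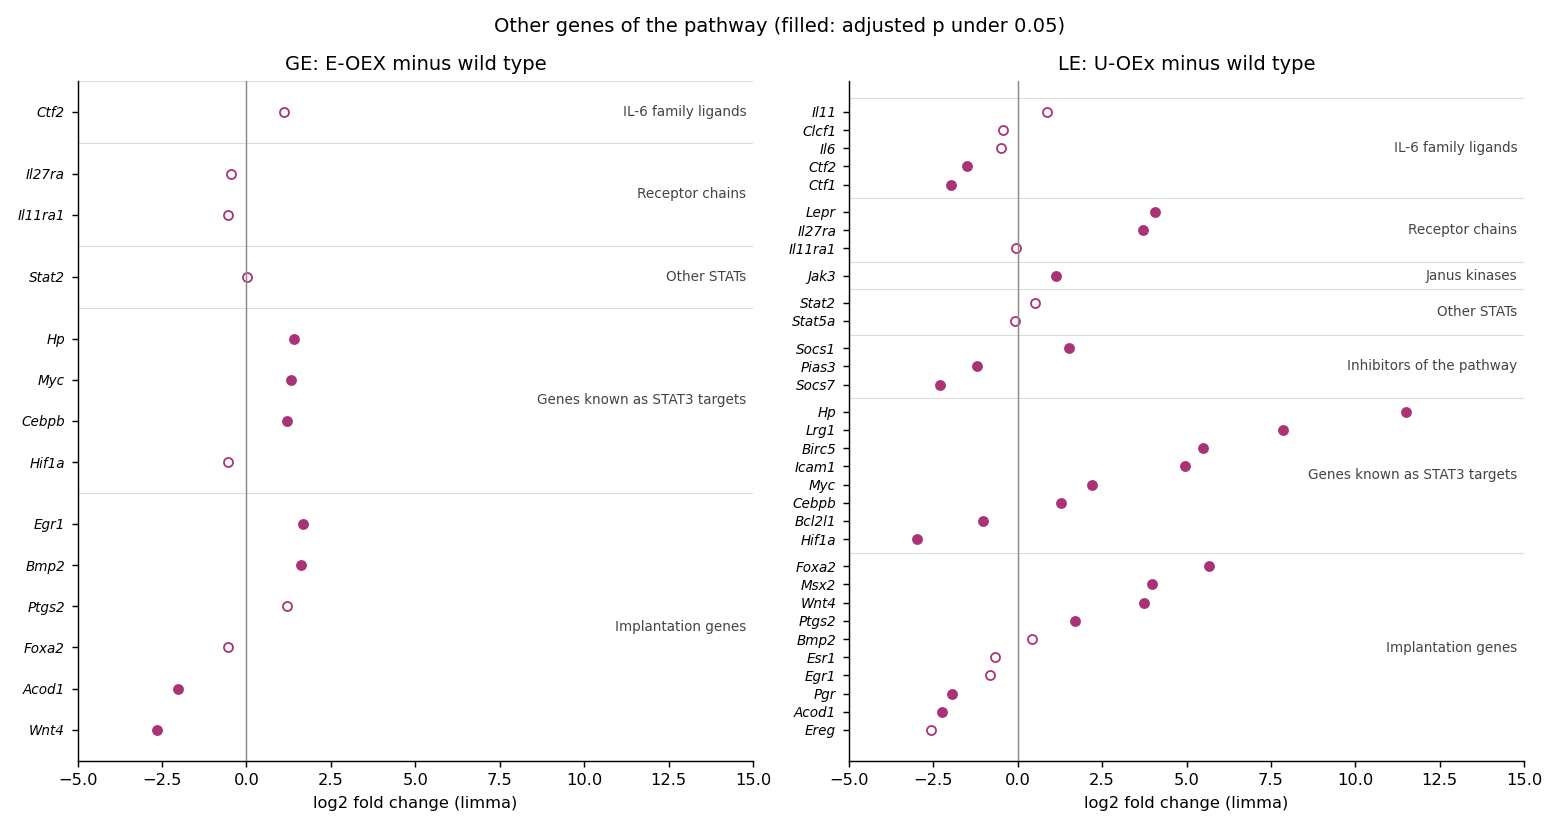
Log2 fold change of each testable gene of the pathway lists in E-OEX GE against wild-type GE (left, 14 genes) and in U-OEx LE against wild-type LE (right, 32 genes), with filled points where the limma adjusted p was under 0.05. Called genes number 7 on the left and 22 on the right; the value of Hp on the right depends on the pseudocount, since wild-type LE is at the floor.

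Fewer genes of the lists passed in the other LE comparisons. Between E-OEX LE and wild-type LE 2 of 14 rose and none fell, beside 10.7% called among all genes. Hp was at least 229-fold higher, with 2356, 254 and 47.5 scaled counts in E-OEX LE; this bound rests on replicate 1 and is 45.1-fold without it. Wnt4 rose by 2.99. Without E-OEX LE replicate 2 neither passed, and without replicate 1 there was 1 call. Between U-OEx LE and E-OEX LE 6 of 25 rose and 1 fell, beside 15% of all genes; the 6 were Hp, the iron-binding gene Lcn2, the receptor chain Il6ra, Bcl3, Cebpb and Fos, and Hif1a fell. No gene of the lists passed there when E-OEX LE replicate 2, U-OEx LE replicate 1 or U-OEx LE replicate 3 was left out.

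Genes whose pattern was most like that of a member were ranked by Pearson's r of log2 rescaled counts over libraries, as a description; libraries of a group share their tissue and genotype, so r follows the differences between groups. Over 15 libraries and 2492 genes, Sgsm3 (r = 0.959), Man1a (0.950), Sidt1 (0.945) and Fcmr (0.942) came first for Lif, followed by an unannotated transcript. Il6st ranked 208 for Lif, at r = 0.756. For Il6st the first were Tmco3 (0.972), Nfasc (0.966) and Znhit6 (0.957), with Lif at rank 142. Over the 9 wild-type and U-OEx libraries and 5238 genes, Sprr2g (0.981) and Gm8741 (0.972) came first for Lifr, followed by an unannotated transcript, while r was -0.88 with Lif and -0.79 with Il6st.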

How the data were processed

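Libraries of mouse uterine epithelium were grouped by their titles; per the labels' protocols they were built with the NEBNext Ultra kit. Per the submitters' processing notes the builds GRCm38 and mm10 were used; the aligner, counter and scaling method are not given in the sources used here. The authors' deposited values are a signal: read counts divided by 1 factor per library, which was read from the values, all within 0.01 of a whole read after division. Genes listed in the wild-type and E-OEX tables had been selected on the GE to LE ratio, so their read sums are not depths.

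The main test was limma 3.58.1 (R 4.3.3, mean-variance trend) on log2(value + 1), for genes averaging at least 1, with Benjamini-Hochberg adjustment over all genes tested and a threshold of 0.05. Genotypes were compared on recovered reads of shared genes, rescaled by TMM (edgeR 4.0.16); GE against LE and the interaction used the deposited scale. A pseudocount of 1 understates the change of low genes. Alternatives were edgeR, DESeq2 1.42.0, other pseudocounts, filters and scalings, 1 fit over all groups, a replicate block and leaving out each library. The limma fit was tested on simulated data. Group ratios within libraries were compared by exact permutation (scipy 1.17.1).

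Members and lists were chosen with earlier results of these data known; 1 item of the lists is not reported here and is left out of their counts. All members are named, and from the lists up to 12 genes per comparison past the threshold with the largest change. Gene positions and exon lengths are from GENCODE M21, and promoters from RefSeq (GRCm38.p6); all 5 members matched both. A group with at most 3 reads per library was taken to be at the floor. Pairs of replicates differed by a chi-square of 16.6 to 182 per degree of freedom, so none was a repeat.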

Additional observations from a re-analysis of the deposited data

Results flagged for a closer look

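The difference between GE and LE was tested for a change between wild-type and E-OEX animals. Of 2 members and 14 list genes tested, 6 passed that interaction test (limma, adjusted p under 0.05). Over all 2933 genes tested, which had been selected on the GE to LE ratio in both genotypes, 10.7% were called. Each value is the E-OEX difference minus the wild-type difference on the log2 scale. Lif changed by -4.93 and Il6st by -2.80, and both passed under every alternative run. Wnt4 changed by -5.36, with scaled counts of 511 to 883 in wild-type GE and 538.6 to 1116 in E-OEX LE against 35.8 to 196 in wild-type LE and 109 to 250 in E-OEX GE. Egr1 changed by 3.58, with 26944 to 41395 scaled counts in E-OEX GE against 5171 to 10584 in wild-type GE. Hp changed by -5.17 and Foxa2 by -3.36, and neither passed with a pseudocount of 0.1 or 5, nor when most single libraries were left out. E-OEX LE replicate 1, with 2356 scaled counts of Hp and 426 of Foxa2, was the highest LE library of that genotype for both. The groups hold 3 libraries each, too few to look for single outlying values.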

How the results depend on the processing

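Of 266 values of the members under other settings, 236 kept their direction and their side of the threshold. The falls of Lif and Il6st in E-OEX GE, the interaction of both and the rise of Lif in U-OEx LE did so under every alternative run; Lif in E-OEX GE ranged from -3.46 to -2.99, and from -3.80 to -3.22 with single libraries left out. In E-OEX LE against wild-type LE, Lif passed with DESeq2 (2.41) and ranged from 0.91 to 2.88 with single libraries left out, while Il6st was 0.40 after quantile normalization and 0.12 on the deposited scale, and -0.18 to 0.078 with libraries left out. For GE against LE in E-OEX animals, Lif did not pass with edgeR (1.17), DESeq2 (0.86), 1 fit over all 5 groups (1.50), quantile normalization (1.69) or TMM (1.73), and ranged from 1.50 to 3.39 with libraries left out; Il6st did not pass with edgeR (0.55), DESeq2 (0.30), 1 fit over all 5 groups (0.36) or TMM (0.59). In U-OEx LE against wild-type LE, Lifr did not pass after quantile normalization (-0.82) and ranged from -1.56 to -1.03, and Il6st was 0.70 after quantile normalization and ranged from -0.16 to 0.14. In U-OEx LE against E-OEX LE, Lif ranged from 0.91 to 2.71 with libraries left out, and Il6st was 0.00091 after quantile normalization. The cause was not tested in any of these. The lists' named genes kept their call in 792 of 898 values and lost it in 106.

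In 1 fit over all 5 groups, which tests the 2819 genes listed in every table, the counts of genes past the threshold were 285 instead of 670 in E-OEX GE, 616 instead of 277 in E-OEX LE, 2486 instead of 6223 in wild type, 2264 instead of 4491 in E-OEX GE against LE, and 1274 instead of 3384 in U-OEx LE against wild type. The lists' counts in that fit, in the same order, were 1 instead of 7, 7 instead of 2, 12 instead of 32, 10 instead of 23 and 6 instead of 22. Without a filter on low values 105 genes and 0 list genes passed in E-OEX LE, and 286 genes and 0 list genes (instead of 642 and 7) in U-OEx LE against E-OEX LE. With DESeq2, 453 genes and 5 list genes passed in E-OEX LE and 501 genes instead of 315 in the interaction. A pseudocount of 0.1 left 2 of 4 list genes in the interaction and 4 in U-OEx LE against E-OEX LE, where edgeR left 2. With single libraries left out, genes past the threshold ranged from 362 to 728 in E-OEX GE, 56 to 322 in E-OEX LE, 179 to 449 in the interaction and 60 to 904 in U-OEx LE against E-OEX LE; list genes ranged from 4 to 8, 0 to 3, 2 to 5 and 0 to 10 there, and from 14 to 23 in E-OEX GE against LE.

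Deviations from group means were compared between same-numbered libraries. Their correlation ran from -0.119 to 0.143 between GE and LE of the same genotype, and from -0.284 to 0.188 between genotypes. Such values cannot tell whether same-numbered GE and LE libraries came from the same animal. A replicate block changed no call of a member (Lif in E-OEX GE stayed at -3.46, limma adjusted p = 2.41e-05) and gave 5 list genes instead of 2 in E-OEX LE. Depth limits low values most: Lif in wild-type LE rested on 20 to 52 reads per library.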
